A study of Gallus gallus with 60 samples.

Results

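Hair cells of the inner ear are made and kept by transcription factors that act in sequence. Described here across hair cell loss and recovery in the chicken utricle are 5 factors grouped as later ones: POU4F3, GFI1, LHX3, MYT1 and SKOR2. The order in which these factors act was not tested. They were chosen by name, 1 row each, out of 17684 rows of the expression table, with earlier results of these data known. All 5 passed the filter on low values, which 13862 rows passed. The utricle is a balance organ whose hair cells are replaced in birds, and streptomycin is an aminoglycoside antibiotic that kills hair cells. The 60 RNA-seq libraries came from utricles of Gallus gallus labelled treated (exposed to streptomycin for 24 h and then left to recover) or control, at 0, 24, 48, 54, 60, 66, 72, 96, 120, 144 and 168 h. The labels give neither the moment from which the hours run nor what the control utricles received, and no strain, age or genotype. Averaging repeat libraries left 28 treated and 28 control samples. Each arm had 4 samples at 24 h, 3 samples at 72, 96, 120 and 168 h, and 2 samples at the other times. How many animals, utricles or cultures stand behind a sample is not stated, so the p-values reflect only the scatter among the samples, which may be technical.

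As background, ATOH1 starts hair cell differentiation, and POU4F3, a POU-domain homeodomain factor, follows it and is needed for hair cells to mature and survive; its loss causes deafness in mice and in people. GFI1, a zinc finger repressor that depends on POU4F3 in mice, keeps mouse hair cells alive and holds neuronal genes down in them. LHX3 is a LIM homeodomain factor known from the pituitary, from motor neurons and from hair cells. MYT1 is a zinc finger factor known from neuronal differentiation. SKOR2 is a nuclear corepressor of the SKI family, known from mouse Purkinje cells.

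Values were taken as RPKM, reads per kilobase scaled to library size. Libraries held between 1486991 and 40331879 alignments, with a median of 21154441, and 7 had fewer than 5000000. Differences are log2(RPKM + 0.5), treated minus control, ± SE, from 1 limma model of all samples, with Benjamini-Hochberg adjustment over the 13862 rows and a threshold of 0.05; the added 0.5 understates the fold of low values. The windows 0 to 24 h, 48 to 72 h and 96 to 168 h are means over their times with equal weight. Where a model with treated and control samples paired by number changed a call, its adjusted p is given as blocked. In bulk RNA, fewer cells of a type and less RNA per cell cannot be told apart. The hair cell markers MYO7A, OTOF, TMC2, OCM2 and CALB2 were above 0 in all 60 libraries, with control medians between 12.7 RPKM for TMC2 and 554 RPKM for OCM2. OTOG and PRPH had no row among those used.

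All 5 factors were lower in treated utricles at 0 to 24 h and at 48 to 72 h. Their estimates were already apart at 0 to 24 h, from -1.14 for MYT1 to -3.33 for SKOR2. At 48 to 72 h they ran from -1.04 for POU4F3 to -3.82 for SKOR2. Whether the later change differed between factors was not tested. By 96 to 168 h POU4F3 no longer differed detectably from control, LHX3 and MYT1 were still moderately lower, GFI1 was at 0.401 of its control level by the fitted fold, and SKOR2 at 0.0878. All 5 passed as lower in the first window, where 5.98% of all rows were called lower. All 5 also passed in the second window (10.2% of rows lower), and 4 of 5 did in the third (7.11% of rows lower). Because the factors were chosen with earlier results of these data known, these counts and those by time are descriptions.

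Taken singly, the times from 120 h on had the fewest rows called lower, both among the 5 factors and over all rows. Of 30 tested genes of the hair bundle and transduction apparatus, 24 were called lower at 48 h and 2 at 144 h. Their median differences were -1.86 and -0.996, so fewer calls at a late time do not by themselves show recovery. At 0 h 4 of the 5 factors were called lower, with 1.98% of all rows, and at 24 and 48 h all 5 were, with 5.4% and 2.41% of rows. At 54 h 3 were (1.8% of rows), at 60 h 4 (2.94%), at 66 h 4 (1.83%), at 72 h 4 (2.89%) and at 96 h 4 (3.3%). At 120 h 2 were called lower (1.7% of rows), at 144 h 2 (0.498%) and at 168 h only SKOR2 (0.808%). In the model of all samples SKOR2 was called at every one of the 11 times, GFI1 at all but 168 h, LHX3 through 96 h, MYT1 from 24 to 96 h except 54 h, and POU4F3 through 48 h. Limma fits of 1 time alone, with few residual degrees of freedom, called 0 rows at 0, 48, 54, 60, 144 and 168 h, which ended the calls of those times for all of the 5, and they also ended calls of POU4F3 and MYT1 at 24 h, LHX3 at 66 and 72 h and GFI1 at 120 h. Leaving out 1 sample ended calls of POU4F3 at 0 and 48 h, of LHX3 at each time from 0 to 96 h but 24 h, of MYT1 at 48, 60 and 66 h, of GFI1 at 0 and 144 h and of SKOR2 at 0 h. Groups of 2 to 4 samples give these single times less precision than the windows have. Arms of 2 samples can also lie fully apart without any effect. The share of all rows whose arms did not overlap was not computed, so statements below that arms were apart are descriptions.

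In control utricles the order of median levels over 28 samples was LHX3 with 41.8 RPKM, GFI1 with 34.2, POU4F3 with 30.3, SKOR2 with 17.2 and MYT1 with 5.39. Control samples spread widely, from 2.99-fold between the lowest and the highest for GFI1 to 4.72-fold for SKOR2. LHX3, GFI1 and POU4F3 therefore overlapped over most of their ranges (23.3 to 81.4, 17.6 to 52.8 and 13.1 to 53.6 RPKM), while the highest MYT1 value, 9.73 RPKM, lay below all values of those 3 and inside the SKOR2 range of 6.62 to 31.3 RPKM. No factor passed a limma F test between times among the controls. The adjusted p of that F test was 0.728 for POU4F3, 0.346 for GFI1, 0.888 for LHX3, 0.607 for MYT1 and 0.633 for SKOR2. Of all rows, 6.46% were called. With so few samples per time, this does not show steady control levels. Control means of GFI1 ran from 27.5 RPKM at 168 h to 47.5 RPKM at 0 h. Those of SKOR2 ran from 11.7 RPKM at 144 h to 23.7 RPKM at 72 h.

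**Figure D1:**
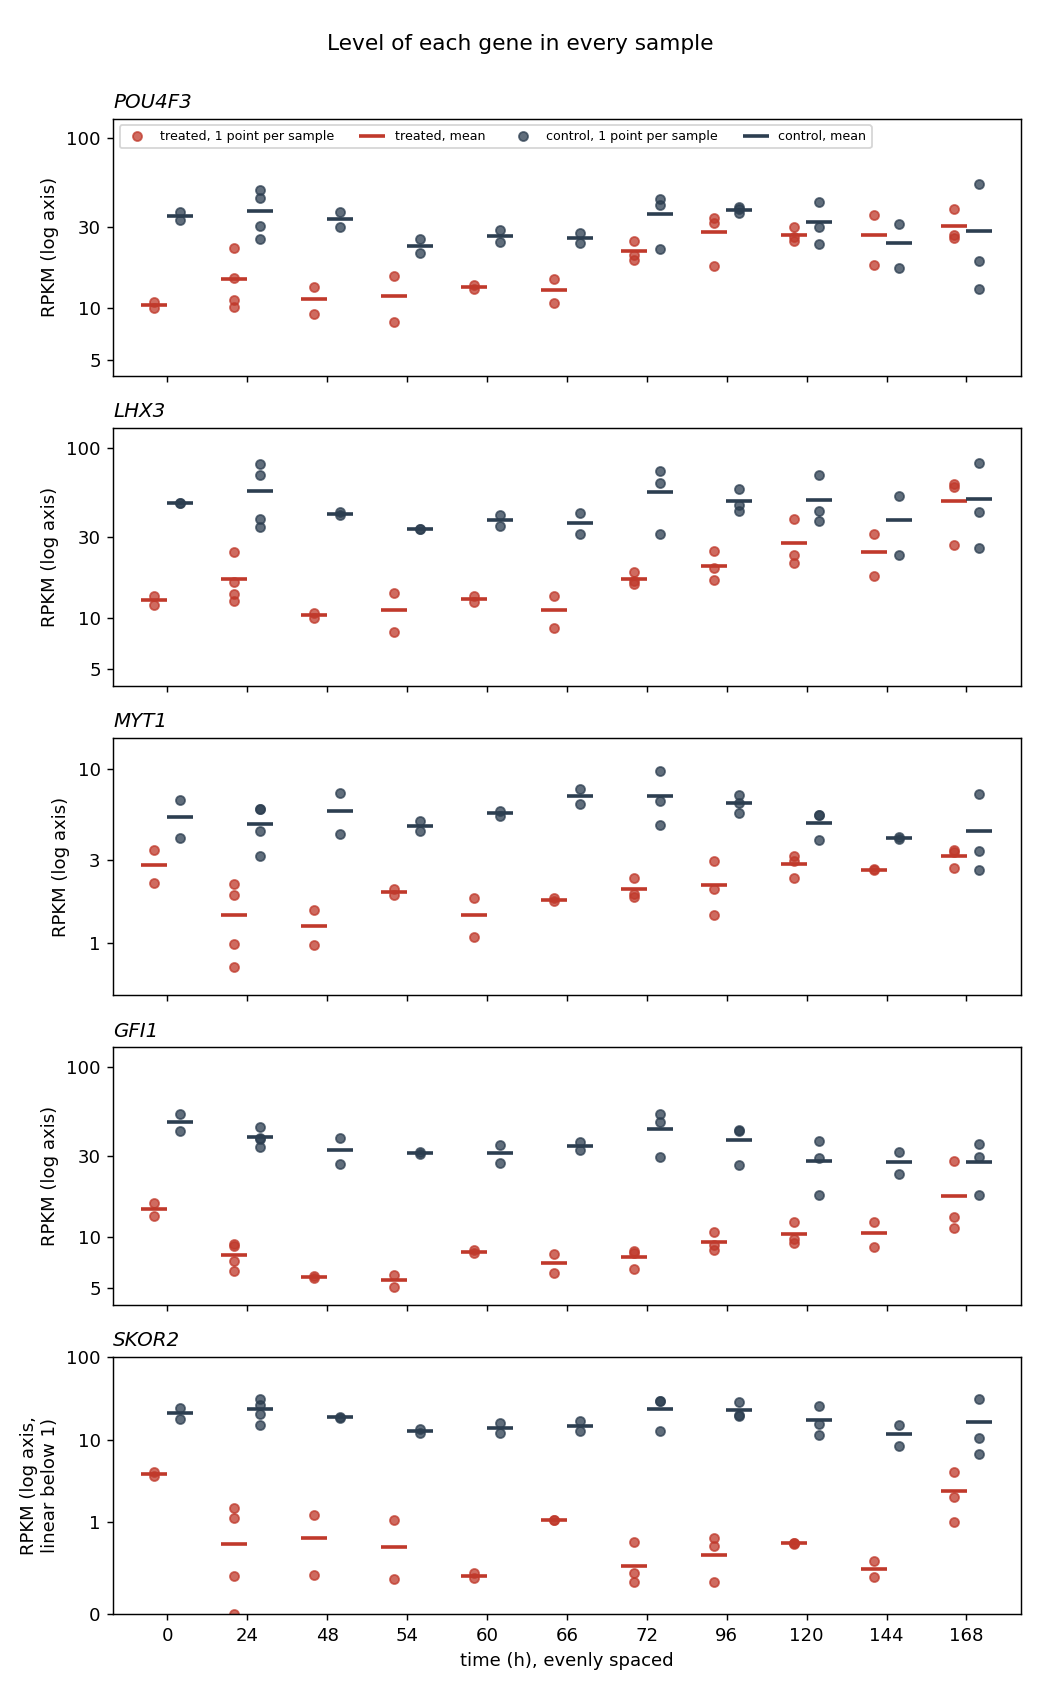
RPKM of each factor (log axis; linear below 1 RPKM for SKOR2) at each time (h, evenly spaced), with 1 point per sample, treated in red left of control in dark blue, and a horizontal bar at each group mean. Treated POU4F3 overlaps the controls at 72 h and from 120 h on, with treated means of 27.9 RPKM at 96 h and 30.5 RPKM at 168 h. The highest treated SKOR2 value, 4.12 RPKM, stays below the lowest control value, 6.62 RPKM.

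POU4F3 fell after treatment and overlapped the controls of its time from 120 h on, while all treated values of 96 h were still below them. At 0 h it had 10.02 and 10.9 RPKM in treated utricles, against 32.9 and 36.8 RPKM in controls. At 24 h the values were 22.5, 10.2, 15.1 and 11.2 RPKM in treated samples, against 44.4, 25.4, 49.7 and 30.3 RPKM in controls. The arms did not overlap at either time, and the mean difference of the first window was -1.51 ± 0.26 (adjusted p = 6.16e-05). Over 48 to 72 h treated samples ran from 8.26 RPKM through a median of 13.7 to 25.0 RPKM, against 21.1, 27.9 and 44.0 RPKM in controls. That difference was -1.04 ± 0.19 (adjusted p = 3.92e-05), and 72 h was the first time at which the arms overlapped. Time by time, the fall passed the test at 0, 24 and 48 h, and at 60 h only with the block (adjusted p = 0.273, blocked 0.0406).

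Late POU4F3 values were closer to control. Treated means at 96, 120, 144 and 168 h were 27.9, 27.1, 26.8 and 30.5 RPKM. Control means were 37.9, 32.0, 24.3 and 28.6 RPKM. Treated means thus changed little after 96 h, while control means were lower than at 96 h. At 96 h the treated samples had 34.1, 31.8 and 17.8 RPKM, against 38.1, 39.4 and 36.2 RPKM in controls. At 120 h they had 30.01, 26.4 and 24.8 RPKM, against 29.9, 42.2 and 23.8 RPKM in controls. Treated values lay below every control at 96 h, by little in 2 of the 3 samples, and among the controls at 120 h. At 144 h they were 35.6 and 18.0 RPKM, against 31.5 and 17.1 RPKM in controls. At 168 h they were 27.0, 38.5 and 25.9 RPKM, against 19.0, 53.6 and 13.1 RPKM in controls. The 3 controls of 168 h were the most dispersed group of POU4F3, and all treated values fell inside their range. The mean difference at 96 to 168 h was -0.06 ± 0.19 (95% interval -0.44 to 0.32, adjusted p = 0.883), so that a remaining loss of up to 0.44 on the log2 scale was within the error. Matching samples by number, treated POU4F3 was at a median of 100.3% of its control (range 49.2 to 198%) and lower in 5 of 11 pairs.

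The shrinkage of the POU4F3 difference was tested directly. From the first window to the last it changed by 1.45 ± 0.32 (adjusted p = 0.00419), a comparison in which 3.9% of all rows were called upward. From the second window to the last it changed by 0.98 ± 0.26. Without the block this missed the threshold (adjusted p = 0.0533), and 0.57% of all rows were called upward. With the block it passed (adjusted p = 0.00389), and 226 of 13862 rows were called upward. The F test of the treatment effect across all 11 times gave adjusted p = 0.21, and 0.014 blocked (1.48% of rows called without the block). Without the block that F test also missed the threshold for GFI1 (adjusted p = 0.0607), LHX3 (0.385), MYT1 (0.326) and SKOR2 (0.323).

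LHX3 recovered part of the way on average and lay within the control range at the last time. At 0 h it had 13.4 and 11.9 RPKM in treated utricles, against 47.6 and 47.0 RPKM in controls. At 24 h it had 24.5, 13.9, 16.3 and 12.6 RPKM in treated samples, against 69.3, 34.2, 80.6 and 38.3 RPKM in controls. Over 48 to 72 h treated samples spanned 8.22 to 18.7 RPKM with a median of 13.4, against 31.1 to 72.4 RPKM with a median of 40.1 in controls. The arms were apart at each of these 7 times, with mean differences of -1.75 ± 0.27 and -1.66 ± 0.19 in the first and second windows (adjusted p = 9.38e-06 and 7.96e-09).

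At 96 h LHX3 was still apart, with 24.6, 19.7 and 16.6 RPKM in treated samples, against 57.3, 46.3 and 42.5 RPKM in controls. At 120 h the values were 38.0, 20.9 and 23.5 RPKM in treated samples, against 42.4, 68.9 and 37.2 RPKM in controls. From that time the arms overlapped. The difference of 120 h was -0.83 ± 0.36 (adjusted p = 0.27); it passed with the block (0.0378) and with repeat libraries kept separate, where it was -1.05 (adjusted p = 0.0273). At 144 h the values were 31.0 and 17.5 RPKM in treated samples, against 52.0 and 23.3 RPKM in controls. At 168 h they were 58.8, 60.8 and 26.8 RPKM in treated samples, against 41.8, 81.4 and 25.8 RPKM in controls. The treated values of 168 h lay among the controls, and the difference was 0.04 with a 95% interval of -0.70 to 0.78, wide enough to hold a fall of the size seen over the whole late window. Its sign turned under trimmed-mean scaling, to -0.01.

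Over 96 to 168 h the LHX3 difference was -0.65 ± 0.19 (adjusted p = 0.0159), with treated lower in 9 of 11 pairs at a median of 63.3% of control. The call rested on single samples of 144 h: without control replicate 1 it was -0.51 (adjusted p = 0.0904), and without treated replicate 2 it was -0.55 (adjusted p = 0.0679). The difference shrank by 1.10 ± 0.33 from the first window to the last (adjusted p = 0.0338). That call was lost without any 1 of the 4 samples of 0 h, control replicate 1 or 3 of 24 h, or control replicate 2 or treated replicate 1 of 144 h (adjusted p = 0.0538 to 0.105). From the second window it shrank by 1.004 ± 0.27 (adjusted p = 0.0555, blocked 0.00285).

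MYT1, the factor with the lowest control median, fell in the first and second windows, and its late difference was smaller than that of 48 to 72 h. That change did not pass in the model of all samples. It passed with samples paired and under some of the other settings given below. At 0 h treated utricles had 2.21 and 3.40 RPKM, against 4.002 and 6.59 RPKM in controls. At 24 h they had 0.984, 0.728, 1.88 and 2.18 RPKM, against 4.36, 3.17, 5.84 and 5.89 RPKM. Treated values were below control values at both times, but the difference of 0 h did not pass (-0.80 ± 0.36, adjusted p = 0.361). Over 48 to 72 h treated samples spanned 0.97 to 2.36 RPKM with a median of 1.81, against 4.18 to 9.73 RPKM with a median of 5.73 in controls. The mean differences were -1.14 ± 0.22 at 0 to 24 h (adjusted p = 0.000288) and -1.55 ± 0.16 at 48 to 72 h (adjusted p = 2.49e-10). At 54 h the fall passed only with the block (adjusted p = 0.135, blocked 0.0308).

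Late MYT1 values were low in treated samples at 96 h and closer to control afterwards. Treated means at 96, 120, 144 and 168 h were 2.13, 2.82, 2.63 and 3.13 RPKM. Control means were 6.32, 4.88, 3.98 and 4.38 RPKM, so the gap narrowed through lower control means as well as higher treated means. Single values at 96 h were 1.44, 2.93 and 2.03 RPKM in treated samples, against 5.58, 6.33 and 7.06 RPKM in controls. At 120 h they were 3.14, 2.36 and 2.96 RPKM in treated samples, against 3.87, 5.39 and 5.39 RPKM in controls. At 144 h they were 2.64 and 2.62 RPKM in treated samples, against 4.03 and 3.92 RPKM in controls. The arms were still apart at 144 h. At 168 h, with 2.69, 3.30 and 3.39 RPKM in treated samples, against 3.34, 7.18 and 2.62 RPKM in controls, they overlapped, and the difference was -0.32 (95% interval -0.92 to 0.28, adjusted p = 0.717). Over the late window it was -0.73 ± 0.16 (adjusted p = 0.000833), with treated lower in 10 of 11 pairs at a median of 54.8% of control. It had shrunk by 0.82 ± 0.22 since 48 to 72 h (adjusted p = 0.0547, blocked 0.0113), and the change of 0.41 since 0 to 24 h did not pass (adjusted p = 0.394).

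GFI1 fell in the first and second windows, with estimates below those of POU4F3, LHX3 and MYT1, and remained low through 144 h; differences between factors were tested only at 96 to 168 h. At 0 h it had 13.3 and 15.9 RPKM in treated utricles, against 42.2 and 52.8 RPKM in controls. At 24 h it had 8.79, 7.20, 6.35 and 9.13 RPKM in treated samples, against 37.5, 44.5, 33.8 and 38.2 RPKM in controls. Over 48 to 72 h treated samples spanned 5.11 to 8.37 RPKM with a median of 6.49, against 26.7 to 52.6 RPKM with a median of 32.4 in controls. The arms stayed far apart at all 7 times, and the mean differences were -1.95 ± 0.20 at 0 to 24 h (adjusted p = 1.47e-09) and -2.24 ± 0.14 at 48 to 72 h (adjusted p = 6.24e-16).

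Recovery of GFI1 was partial. At 96 h treated samples had 10.7, 8.37 and 8.92 RPKM, against 42.2, 26.3 and 42.3 RPKM in controls. At 120 h they had 9.78, 9.27 and 12.3 RPKM, against 17.7, 36.5 and 29.2 RPKM in controls. Every treated value up to 144 h, where they were 12.2 and 8.76 RPKM, against 31.7 and 23.3 RPKM in controls, lay below every control value of its time. At 168 h treated samples had 27.9, 11.3 and 13.1 RPKM, against 35.2, 29.5 and 17.6 RPKM in controls. The arms overlapped only in that treated replicate 1 lay above control replicate 3, the lowest control. The library of treated replicate 1 had the lowest depth of the series, 1486991 alignments. The difference at 168 h was -0.70 (95% interval -1.23 to -0.16) and did not pass (adjusted p = 0.197, blocked 0.0552); without treated replicate 1 it was -1.08 and passed (adjusted p = 0.0414). Over 96 to 168 h GFI1 was lower by -1.32 ± 0.14 (adjusted p = 2.82e-09), lower in 11 of 11 pairs, at a median of 38.3% of control and 79.1% at most. The difference had shrunk by 0.92 ± 0.20 since 48 to 72 h, the only one of the 5 to pass this comparison in the model of all samples (adjusted p = 0.0102). POU4F3 and LHX3 changed by 0.98 and 1.004 (limma adjusted p = 0.0533 and 0.0555), so passing does not set GFI1 apart from them. Since 0 to 24 h the GFI1 change was 0.63 ± 0.24 (adjusted p = 0.102, blocked 0.0278).

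SKOR2 had the lowest estimate of the 5 in each window and did not come back into the control range at any of the 11 times. At 0 h treated utricles had 4.12 and 3.61 RPKM, against 17.8 and 23.9 RPKM in controls. At 24 h replicate 1 of the treated samples was listed at 0, the only library of 60 with that value. That library was shallow, with 3447741 alignments, so its low values are coarse. The other treated samples of 24 h had 0.42, 1.14 and 1.495 RPKM, against 31.3, 20.3, 26.2 and 15.01 RPKM in controls. Over 48 to 72 h treated samples spanned 0.347 to 1.23 RPKM with a median of 0.453, against 11.9 to 29.2 RPKM with a median of 15.8 in controls. The arms did not overlap at any of these 7 times, with mean differences of -3.33 ± 0.33 at 0 to 24 h (adjusted p = 5.66e-10) and -3.82 ± 0.23 at 48 to 72 h (adjusted p = 1.96e-16).

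Treated SKOR2 stayed low through 144 h. At 96 h it had 0.745, 0.828 and 0.356 RPKM in treated samples, against 28.6, 19.5 and 19.7 RPKM in controls. At 120 h it had 0.777, 0.778 and 0.768 RPKM in treated samples, against 11.3, 25.6 and 15.4 RPKM in controls. No treated sample of either time reached 1 RPKM, nor did those of 144 h, with 0.581 and 0.409 RPKM, against 14.9 and 8.47 RPKM in controls. At 168 h the treated values were 4.03, 2.04 and 1.02 RPKM, against 10.6, 31.2 and 6.62 RPKM in controls. Each treated sample of 168 h was higher than every treated sample of 96 to 144 h, and the highest came from the library of lowest depth. Before averaging, the repeat libraries of treated replicate 2 at 120 h had 1.04 and 0.56 RPKM. The first of these was above the lowest treated value of 168 h. The difference of 168 h was -2.39 (95% interval -3.27 to -1.51, adjusted p = 0.0018), and -2.94 without the libraries under 5000000 alignments (adjusted p = 0.00132). Over 96 to 168 h the difference was -3.51 ± 0.23 (adjusted p = 1.12e-14), with treated lower in 11 of 11 pairs at a median of 4.83% of control. It had changed by 0.31 ± 0.33 since 48 to 72 h (adjusted p = 0.872) and by -0.18 ± 0.40 since 0 to 24 h (adjusted p = 0.838).

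**Figure D2:**
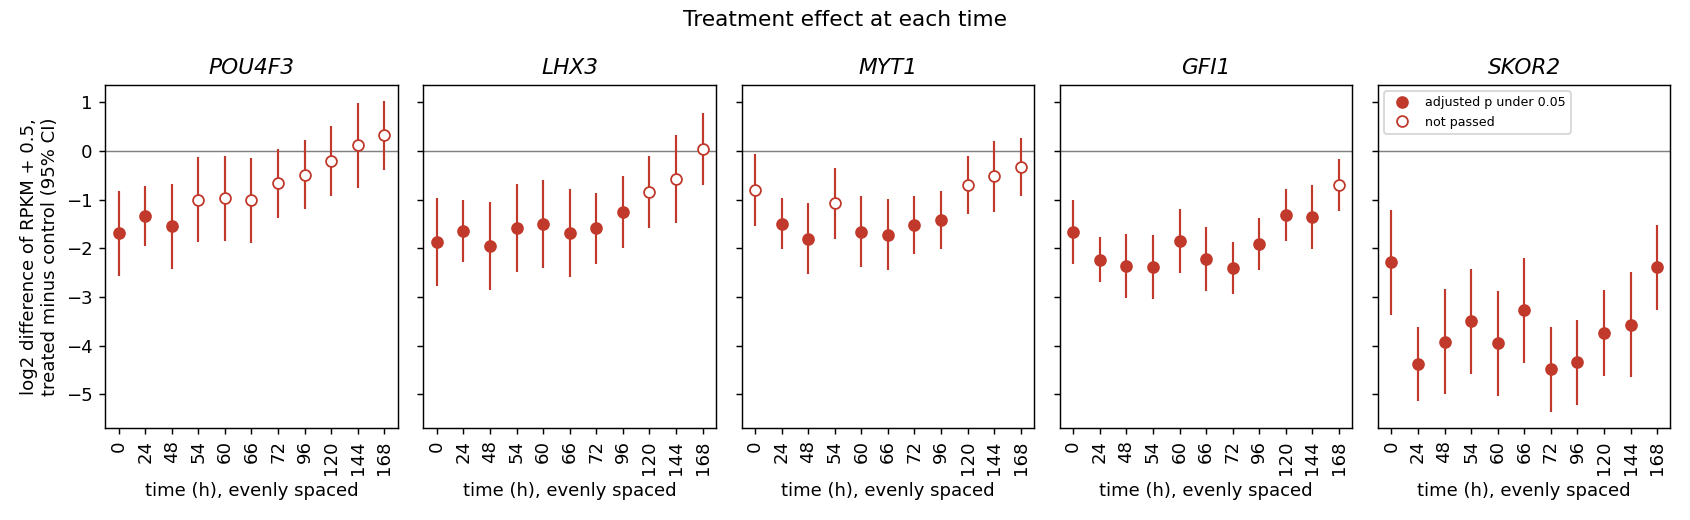
Difference of log2(RPKM + 0.5), treated minus control, at each time (h, evenly spaced) for each factor, with 95% intervals from the limma model, a line at 0, and filled points where the adjusted p was under 0.05. The POU4F3 points are open from 54 h on, those of LHX3 and MYT1 from 120 h on, those of MYT1 also at 0 and 54 h, that of GFI1 at 168 h, and the SKOR2 points are all filled.

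Whether the factors differed from each other in the late window was tested on the log2 ratio of 2 factors within each sample. Arm labels were permuted within each time over 11 treated and 11 control samples, an exact two-sided permutation test with 48000 arrangements and a smallest possible p of 4.17e-05, and the 10 pairs of factors were adjusted together. A paired version, chosen after seeing the data, flipped signs within the 11 same-numbered pairs (2048 arrangements, smallest possible p of 0.000977) and changed no call: 9 pairs of factors had an adjusted p of 0.00122 to 0.00326, and LHX3 and MYT1 0.488. The effect on POU4F3 was above that on LHX3 by 0.59 (adjusted p = 0.000972, exact permutation test), above that on MYT1 by 0.68 (0.00185) and above that on GFI1 by 1.26 (0.000667). GFI1 was more strongly reduced than LHX3, by -0.67 (adjusted p = 0.00438, exact permutation test), and than MYT1, by -0.58 (0.013). SKOR2 differed from each of the other factors, by 2.19 for GFI1 to 3.45 for POU4F3, with the smallest p that the permutations can give in all 4 pairs (adjusted p = 0.000104). LHX3 and MYT1 differed by 0.08, which did not pass (adjusted p = 0.698) and does not show that they were alike. The late order was thus POU4F3, then LHX3 and MYT1 without a detectable difference, then GFI1, then SKOR2. It is an order of the difference remaining late, not of recovery. At 48 to 72 h the estimates were -1.04 for POU4F3, -1.55 for MYT1, -1.66 for LHX3, -2.24 for GFI1 and -3.82 for SKOR2. From then to the late window they changed by 0.98, 0.82, 1.004, 0.92 and 0.31, in that order. Whether these changes differed between factors was not tested.

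**Figure D3:**
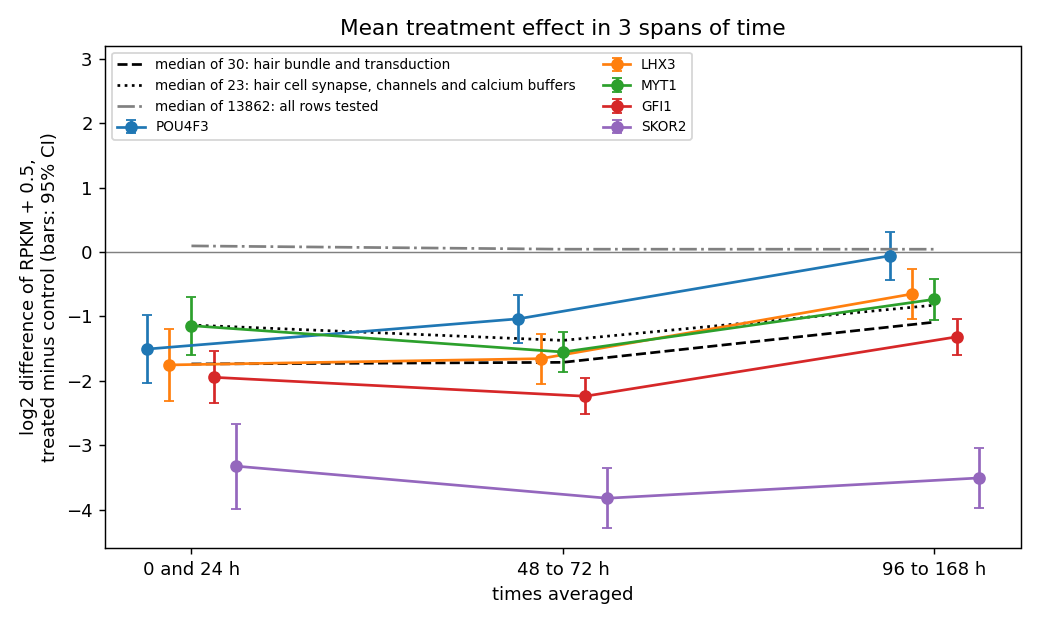
Mean difference of log2(RPKM + 0.5), treated minus control, of each factor in the windows 0 to 24 h, 48 to 72 h and 96 to 168 h, with 95% intervals as bars. Broken lines join the medians of the 30 bundle genes, the 23 synapse and channel genes and all 13862 rows tested. All 15 means are below 0, and only the late interval of POU4F3, -0.44 to 0.32, includes 0.

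**Figure D4:**
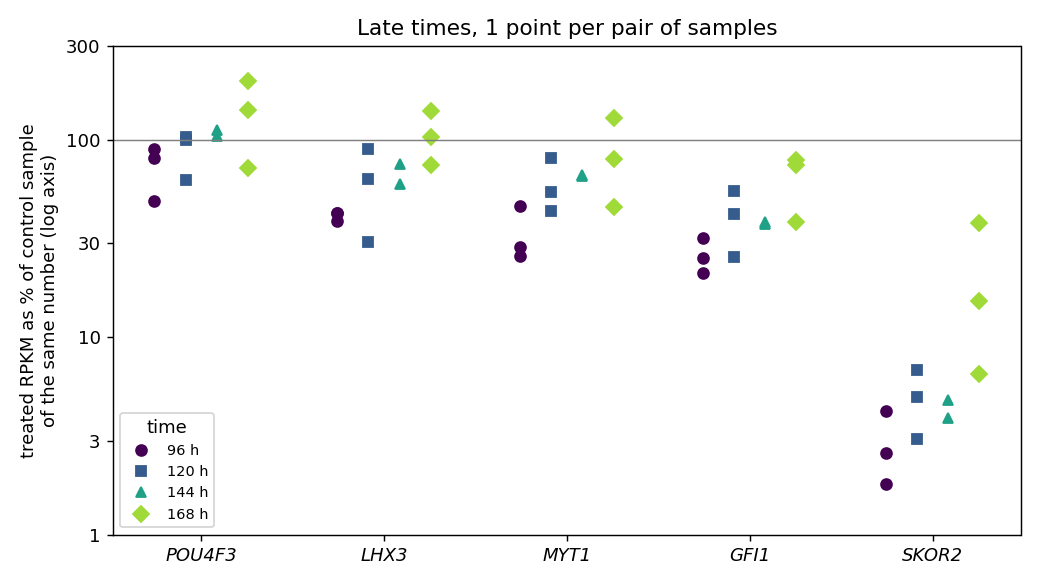
Treated RPKM as a percent of the control of the same number (log axis), 1 point per pair of samples at 96 to 168 h, 11 pairs per factor, with a symbol for each time and a line at 100%. The POU4F3 points lie on both sides of 100%, and those of GFI1 and SKOR2 are all below it.

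Genes that build the hair cell were followed in the same samples. Of 30 tested genes of the hair bundle and transduction apparatus, 27 fell at 0 to 24 h, 26 at 48 to 72 h and 22 at 96 to 168 h, when 1 rose; the list medians were -1.74, -1.71 and -1.09, against 0.09, 0.04 and 0.04 over all rows. Of 23 tested genes of the synapse, channels and calcium buffers, 14 fell and 1 rose in the first window, 17 fell in the second and 13 in the third, with medians of -1.13, -1.37 and -0.83. Late falls included SMPX, a small protein whose loss causes deafness (-3.12 ± 0.29, adjusted p = 8.34e-11), FSCN2, an actin crosslinker of stereocilia (-2.13 ± 0.29, 6.23e-07), and SLC17A8, which loads glutamate into vesicles (-2.07 ± 0.17, 2.86e-12). The late POU4F3 difference of -0.06 was above the median of both lists, LHX3 and MYT1 with -0.65 and -0.73 were above both, and GFI1 and SKOR2 with -1.32 and -3.51 were below both. Set against the mean log2 level of the 30 bundle genes in the same samples, late POU4F3 stood 2.31 higher in treated utricles, against 1.30 higher in controls. Late SKOR2 stood 2.02 lower than the bundle mean in treated utricles (-2.02), against 0.43 higher in controls. GFI1 stood 1.07 higher in treated utricles and 1.32 higher in controls. These ratios are descriptions.

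Transcripts of other cell types moved in the same window, in which 9.65% of all rows were called higher and 7.11% lower, or 15.8% and 11.3% with the block. In the late window 16 of 19 stroma genes rose, with a summed level of 1179 to 2641 RPKM in treated samples, against 243 to 1711 RPKM in controls. Among supporting cell genes 11 of 23 rose, with summed levels of 2188 to 4083 RPKM in treated samples, against 1167 to 2736 RPKM in controls. Of 23 genes of dividing cells, 20 rose late (113 to 342 RPKM summed in treated samples, 87.7 to 129 RPKM in controls), and all 23 had risen at 48 to 72 h. Of 8 Schwann cell and glia genes, 2 rose, with summed levels of 216 to 407 RPKM in treated samples, against 70.2 to 284 RPKM in controls. Of 11 neuron genes 3 rose and 3 fell (224 to 303 RPKM in treated samples, 233 to 419 RPKM in controls). Among neuronal markers STMN2 was at 0 in 32 libraries and NEFM in 2, while NEFL and ELAVL4 were above 0 in all 60. Of 15 leukocyte genes 5 rose and 1 fell (84.2 to 173 RPKM in treated samples, 71.0 to 161 RPKM in controls). With the block, 19 stroma genes, 5 Schwann cell and glia genes and 8 leukocyte genes rose, and 17 supporting cell genes rose and 1 fell. The part of these shifts in the levels of the 5 factors was not tested.

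Of 25 other transcription factors of hair cell development listed, 17 had a row and 16 were tested. Without the block, 1 rose at 0 to 24 h, 3 at 48 to 72 h and 5 at 96 to 168 h, beside 6.77%, 9.13% and 9.65% of all rows called higher (medians -0.04, 0.19 and 0.35), and 0 fell. With the block, 2, 6 and 10 rose in these windows, beside 14.2%, 15.1% and 15.8% of all rows, and late SOX11, a SOXC-family factor, fell (-0.40, adjusted p = 0.279, blocked 0.0153). Late rises were seen for HES6, a basic helix-loop-helix factor that acts with ATOH1 in neural and hair cell differentiation (2.31 ± 0.29, adjusted p = 1.21e-07), and NHLH1, a helix-loop-helix factor of young neurons and hair cells (1.07 ± 0.28, 0.00584). RFX2, a regulator of cilia genes, rose by 0.54 ± 0.15 (adjusted p = 0.0101). EYA4 and EYA1, transcriptional coactivators of ear formation, rose by 0.38 and 0.32 (0.0406 and 0.012). ATOH1 was higher by 0.90 ± 0.34 without passing (adjusted p = 0.0598, blocked 0.000109).

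Close relatives of the factors were mostly not measurable. Of 15 listed paralogs 12 had a row and 3 passed the filter on low values, all of the SKI family. SKOR1, the nearest relative of SKOR2, fell at 0 to 24 h (-1.71 ± 0.32, adjusted p = 0.000158) and at 48 to 72 h (-1.20 ± 0.22, 7.23e-05). At 96 to 168 h it was at -0.37 ± 0.22 (adjusted p = 0.291, blocked 0.0356), where SKOR2 was at -3.51. SKI, at 0.50 ± 0.19, passed late with the block (adjusted p = 0.0718, blocked 0.00782), and SKIL was at 0.10. How reads shared by related genes were counted is not given in the sources used here.

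Of 17 tested cofactors that bind these factors or work with them, 3 rose at 0 to 24 h, 2 rose and 1 fell at 48 to 72 h, and 2 rose and 1 fell at 96 to 168 h, with a late median of 0.06. Of all rows, 6.77%, 9.13% and 9.65% were called higher in these windows, and 5.98%, 10.2% and 7.11% lower. The late counts were close to those shares. With the block 7 cofactors rose and 1 fell at 0 to 24 h, when 14.2% of all rows were called higher. The late changes were in LMO3 (0.83 ± 0.18, adjusted p = 0.00106), a LIM-only protein, in SIN3A (0.54 ± 0.17, 0.0211), the scaffold of a histone deacetylase complex, and in LMO4 (-0.50 ± 0.09, 0.000151), a LIM-only protein that competes for the LIM-domain binder LDB1. LDB1 itself was at 0.01, and KDM1A, a histone demethylase recruited by GFI1, at 0.00, both far from the threshold (adjusted p = 0.982 and 0.997).

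Over the 56 samples, the 4 named rows nearest to each factor were taken by the Pearson correlation of log2 values, across samples that share treatment, times and libraries. POU4F3 was nearest to SKOR1 (0.905), LHX3 (0.894), FAM188B2 (0.878) and CDCP2 (0.876). LHX3 was nearest to the stereocilia actin bundler ESPN (0.945), the stereocilia scaffold PDZD7 (0.937), AP3B2 (0.932) and SKOR1 (0.929). MYT1 was nearest to HYDIN, a protein of motile axonemes (0.926), TJAP1 (0.924), SLC7A14 (0.922) and PTPRT (0.922). GFI1 was nearest to FAM70B (0.959), GALNT9 (0.956), DBC1 (0.95) and TMCC2 (0.948), and SKOR2 to TMCC2 (0.969), GALNT9 (0.969), LRTM2 (0.969) and NELL1 (0.968). GALNT9 and TMCC2 stood on the lists of both GFI1 and SKOR2, and their own late differences were -1.70 and -2.61. Within the 28 samples of 1 arm the correlations were mostly lower, from 0.534 (SKOR2 with TMCC2, treated) to 0.948 (LHX3 with SKOR1, treated). For GFI1 they were 0.698 to 0.767 in treated samples and 0.646 to 0.747 in controls.

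Among the 5, GFI1 and SKOR2 had the highest correlation over the 56 samples, which mix treated and control (0.942). POU4F3 and LHX3 came next (0.894), and POU4F3 and SKOR2 had the lowest (0.597). After subtracting the mean of each arm and time, POU4F3 and LHX3 still moved together from sample to sample (0.858), while the other 9 pairs ran from 0.228 to 0.568. GFI1 and SKOR2 were then at 0.498, below LHX3 and SKOR2 (0.568) and MYT1 and SKOR2 (0.509).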

How the data were processed

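RNA-seq libraries of utricles, 60 in all, were labelled treated or control at 11 times. Per the submitters' processing notes, TopHat 1.4.0 and Partek 6.6 were used, without their roles; the genome build and the counting rules are not given in the sources. The table names no unit, and the authors' deposited values were taken as RPKM because multiplying them by each library's alignments gave whole multiples of a gene-specific step: this held within 0.05 for over 90% of values in 36.9% of 3339 rows, and in 0% of rows before multiplying. That check bears on scaling to library size only. Scaling per kilobase was not tested, and the order of levels between factors rests on it. RPKM is relative, so abundant transcripts that go up push down all others. The table had 2 columns that matched no sample; they were not used.

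Rows reaching 1 RPKM in 2 or more libraries (13862 of 17684) were tested on log2(RPKM + 0.5). Titles with a decimal, 2 of the 0 h set and 2 of the 120 h set, were taken to be second libraries of a sample (r = 0.984 to 0.993) and averaged on the log scale. The 56 samples entered 1 limma 3.58.1 model (R 4.3.3) with 22 group means, 34 residual degrees of freedom and empirical Bayes with trend. Adjustment was by Benjamini-Hochberg over all tested rows at a threshold of 0.05, and intervals are 95%. The code was tested on simulated data. Library depth ran from 1486991 to 40331879 alignments, and low values are coarse in the 7 libraries with fewer than 5000000.

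Treated and control samples share replicate numbers. Deviations from group means correlated between same-numbered samples at 0.117 to 0.71 in all 16 pairs of times with 3 or more pairs, so the numbers were taken to pair the samples, although no label says so. The blocked model has 28 pairs and 17 residual degrees of freedom. Differences between factors used exact permutation tests, with arm labels permuted within times or, as an alternative chosen after seeing the data, signs flipped within pairs.

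The 5 factors and the lists were chosen with earlier results of these data known. Other genes named were, per list, among the 5 called genes with the largest late change, and for each factor the 4 named rows with the highest correlation over the 56 samples; ATOH1, SOX11, SKOR1, SKI, SKIL, LDB1 and KDM1A were added after their values were seen. Alternatives were other pseudocounts, scalings and filters, the handling of repeat libraries, the block, a fit of the contrast's own times, and leaving out samples or shallow libraries. Sequences and coordinates were not used here.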

Additional observations from a re-analysis of the deposited data

Results flagged for a closer look

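For 3 comparisons of the treatment effect between times, the change of the effect itself passed the test in the limma model (adjusted over all rows). The GFI1 difference from control was closer to 0 at 96 to 168 h than at 48 to 72 h by 0.92. The POU4F3 difference was closer to 0 at 96 to 168 h than at 0 to 24 h by 1.45. The LHX3 difference was closer to 0 at 96 to 168 h than at 0 to 24 h by 1.10. In groups of 4 samples, which exist only at 24 h, no sample was flagged by Dixon's Q for any of the 5 factors. With so few samples that rule catches only extreme gaps, so smaller outliers could be missed.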

How the results depend on the processing

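The fall of GFI1 and SKOR2 kept its direction and its call in all 3 windows under every alternative tried, and so did the fall of POU4F3, LHX3 and MYT1 at 0 to 24 h and 48 to 72 h, except MYT1 at 0 to 24 h without the samples numbered 1 (adjusted p = 0.0828). The cause of a changed call was not tested, except that leaving out samples or times leaves fewer residual degrees of freedom. With the replicate block, the changes from 48-72 h to 96-168 h were the same in size and passed for POU4F3 (0.98), LHX3 (1.004) and MYT1 (0.82), as did that of GFI1 from 0-24 h (0.63), and the F statistics of treatment by time passed for POU4F3 (6.26), GFI1 (6.07) and LHX3 (5.75). The block raised the rows called to 3201 at 0-24 h, 3761 at 96-168 h, 440 for late minus middle, 2612 for late minus early and 791 at 168 h, and changed no other call of the 5 factors in the windows or at 168 h. The change from 48-72 h also passed for POU4F3 with a pseudocount of 1 (0.95), for POU4F3 and LHX3 with trimmed-mean scaling (0.97 and 0.99) and quantile normalization (1.03 and 1.07), for POU4F3 and MYT1 with repeat libraries kept separate (0.95 and 0.80), and for MYT1 with second libraries left out (0.83), without the libraries under 5000000 alignments (0.83) and in a fit of the contrast's own times (0.82). Treatment by time passed for POU4F3 with quantile normalization (F = 4.27) and for GFI1 with repeat libraries separate (F = 4.02). LHX3 at 168 h turned to -0.0144 with trimmed-mean scaling and to -0.18 without the shallow libraries. The LHX3 change from 0-24 h missed the threshold without the shallow libraries (1.13) and in a fit of its own times (1.10), as did LHX3 at 96-168 h (-0.65) and SKOR2 at 168 h (-2.39) in fits of their own times. Rows called moved to 77 for late minus middle with a pseudocount of 0.1. Keeping repeat libraries separate gave 3142 at 0-24 h and 2219 for late minus early, and fits of own times gave 765 at 0-24 h, 661 for late minus early and 0 at 168 h, as at 0, 48, 54, 60 and 144 h, which ended the single-time calls named with them.

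Without all samples of a number, late calls were lost for LHX3 (numbers 1 and 2, adjusted p = 0.0809 and 0.308) and MYT1 (number 2, 0.0561), the POU4F3 change from 0-24 h was lost (numbers 1 and 2, 0.236 and 0.069), the GFI1 change from 48-72 h was lost (each of numbers 1 to 3) and SKOR2 at 168 h was lost (number 2, 0.33). The LHX3 change from 0-24 h was lost without each of numbers 1 to 3 (adjusted p = 0.398, 0.211 and 0.126). Without number 2, single-time calls were also lost for GFI1 at 0, 48, 54, 60, 66, 120 and 144 h and for SKOR2 at 0, 54, 60, 66 and 144 h. SKOR2 at 0 h missed the threshold with a pseudocount of 0.1 (0.0873), and LHX3 at 54 and 60 h without the filter on low values (0.0557 and 0.0596), while MYT1 at 120 h passed with repeat libraries separate (0.0427). Leaving out single samples or all samples of a number gave these ranges. At 96-168 h POU4F3 ran from -0.18 to 0.0889, LHX3 from -0.79 to -0.51 and MYT1 from -0.80 to -0.64, and at 0-24 h MYT1 ran from -1.31 to -0.98. Late minus middle ran from 0.85 to 1.22 for POU4F3, 0.82 to 0.98 for GFI1, 0.86 to 1.15 for LHX3 and 0.74 to 0.91 for MYT1; it passed in 10, 10 and 11 of the fits without 1 sample for POU4F3, LHX3 and MYT1, with the lowest adjusted p each time without control replicate 2 of 168 h (0.00531, 0.0153 and 0.0124). Late minus early ran from 1.33 to 1.60 for POU4F3, 0.96 to 1.25 for LHX3 and -0.42 to 0.0512 for SKOR2. At 168 h POU4F3 ran from -0.091 to 0.91, GFI1 from -1.08 to -0.37, LHX3 from -0.35 to 0.47, MYT1 from -0.64 to 0.0634 and SKOR2 from -2.94 to -1.76. The F statistic of treatment by time ran from 1.53 to 5.11 for POU4F3, 2.35 to 4.55 for GFI1 and 1.51 to 3.999 for SKOR2, and the LHX3 minus MYT1 difference from -0.0559 to 0.22. Rows called ran from 435 to 1972 at 0-24 h, 831 to 2852 at 48-72 h, 578 to 2446 at 96-168 h, 0 to 231 for late minus middle, 51 to 1447 for late minus early and 2 to 494 at 168 h. At single times, POU4F3 ran from -0.39 to 0.0313 at 120 h, turning positive without control replicate 2 or without all samples numbered 2, and from -0.36 to 0.60 at 144 h, turning negative without control replicate 2 or treated replicate 1. LHX3 ran from -1.14 to 0.00361 at 144 h, turning positive without control replicate 1. Calls over all rows split into 1110 higher and 1205 lower at 96-168 h with trimmed-mean scaling, against 1337 and 985 as deposited; at 0-24 h the splits were 653 and 944 with trimmed-mean scaling, 605 and 869 with quantile normalization, and 939 of 1768 calls were higher as deposited. Of the 60 library values of SKOR2, 17 were under 1 RPKM.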
